A study of Homo sapiens with 28 samples.

Results

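Integrin subunits and laminin chains, the receptors and ligands by which cells hold on to the extracellular matrix, were described across 2 human colorectal cancer (CRC) cell lines with and without perturbation of the transcription factor TWIST1. The set held 37 of the 62703 genes in the count tables, namely 18 integrin alpha chains, 8 integrin beta chains, 5 laminin alpha chains, 4 laminin beta chains and 2 laminin gamma chains. Members were chosen by gene symbol, matched to the gene identifiers through GENCODE. The study asked which genes depend on TWIST1, a basic helix-loop-helix factor of the epithelial-mesenchymal transition, in CRC cells that spread to the peritoneum. RNA-seq of polyA RNA covered 8 groups of 3 libraries each, and TWIST1 ChIP-seq gave 1 peak list for each line. MDST8, a CRC line of mesenchymal type, was sequenced as wild type (WT) and as 5 TWIST1 knockout clones, each grown from a single cell. The clones came from electroporation of Cas9 with guide RNAs and are called 1.1, 2.2, 3.2, 3.5 and 3.6 after their libraries. In the sample titles 3.2, 3.5 and 3.6 share the same clone name, and only their library names told them apart. LoVo, a CRC line of epithelial type, was sequenced as cells labelled TWIST1 shRNA and as cells labelled shRNA control, the short hairpin RNAs being delivered by lentivirus. The labels give all samples the same medium, DMEM with serum, while the study's methods name several media without tying each to a line. Each clone descends from 1 cell, so that what the edit did and what set that founder cell apart cannot be told apart within a clone. Nothing in the labels says that the 3 libraries of a group came from separate cultures, and the p-values therefore measure the spread between these libraries, which may be technical.

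An integrin is a pair of 1 alpha and 1 beta chain that spans the cell membrane, and the pair decides which ligand is bound. The alpha chains of ITGA1, ITGA2, ITGA10 and ITGA11 pair with ITGB1 to bind collagen, those of ITGA3, ITGA6 and ITGA7 bind laminin, those of ITGA5, ITGAV, ITGA8 and ITGA2B bind proteins with an RGD motif such as fibronectin, and the chains ITGAL, ITGAM, ITGAX and ITGAD mark leukocytes. ITGB4 pairs with ITGA6 alone, in the hemidesmosomes of epithelia, and ITGB6 and ITGB8 pair with ITGAV to activate TGF-beta. Laminins are trimers of an alpha, a beta and a gamma chain and form the sheet of the basement membrane, with LAMA3 and LAMB3 in the laminin of epithelial anchorage, LAMA5 in that of most epithelia, LAMA1 in that of the early embryo, and LAMA2 and LAMA4 in those of muscle and vessels.

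The MDST8 libraries held 17252883 to 22217009 counts and the LoVo libraries 16567606 to 20889529. TWIST1 itself was at 0 counts in all 3 libraries labelled shRNA control, while each library labelled TWIST1 shRNA held 73 to 93, so that the targeted gene goes against the LoVo labels. Whether the LoVo labels are exchanged or the libraries came from other cells was not tested, and every LoVo direction given here follows the labels as they stand. In MDST8, TWIST1 RNA stood at 45.7 ± 6.09 CPM (counts scaled to library size, mean ± SD, n = 3) in WT and at group means of 29.3 to 53.3 CPM in the clones, where an edited gene may still be transcribed, and the edits themselves were not analysed here. Of 8 colon epithelium markers, KRT8 and KRT18 passed the filter on low counts in MDST8 and all 8 passed it in LoVo, with a summed level of 70.2 to 75.9 CPM in MDST8 WT libraries against 8084 to 8399 CPM in the labelled LoVo controls. The 5 mesenchymal markers summed to 3779 to 3952 CPM in MDST8 WT and to 120 to 125 CPM in the labelled LoVo controls, so each line carried the markers of its type. CDH1, EPCAM and CDX2, which like KRT20, VIL1 and CDH17 did not pass the filter in MDST8, were at or near 0 there. Leukocyte markers summed to at most 1.6 CPM and endothelial markers to at most 1.72 CPM in any library.

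Of the 37 chains, 32 passed the filter in at least 1 line, with 24 passing in MDST8, 26 in LoVo, and 18 in both lines. The filter asked for a geometric mean of at least 1 CPM over all libraries of the line, computed with an offset of 1. ITGA8, ITGAD, ITGAL, ITGB7 and LAMB4 failed it in both lines. Their counts stayed at 15 or fewer in every library, ITGB7 being read at 15, 13 and 12 in the labelled LoVo controls. ITGA4, ITGA10, ITGA11, ITGB2, ITGB3 and LAMA1 passed in MDST8 alone, and ITGA2B, ITGA9, ITGAM, ITGAX, ITGB6, LAMA3, LAMA4 and LAMC3 in LoVo alone. Levels of different genes were compared per length, as CPM divided by the exon length in kilobases (FPKM). That length merges all annotated exons of a gene, and the length of the transcripts made in these cells was not measured. Orders and shares between genes therefore depend on it.

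The receptor set of MDST8 WT was led by ITGA3, a laminin receptor chain, and by ITGB1, the common partner of most alpha chains. ITGA3 stood at 139 ± 6.54 FPKM and made up 46.2 ± 0.933% of the summed level of the 18 alpha chains, ahead of ITGA6 at 61.6 ± 0.732 FPKM, ITGA5 at 52.8 ± 0.524 FPKM, ITGA2 at 25.7 ± 0.692 FPKM and ITGAV at 13.2 ± 0.421 FPKM (mean ± SD, n = 3 here and below). Each of these neighbours in the order differed by more than the spread of its libraries. The place of ITGAV below ITGA2 rests on merged exon lengths of 19336 bp and 7896 bp. ITGB1 stood at 54.1 ± 0.702 FPKM and ITGB5, a partner of ITGAV, at 41.1 ± 3.21 FPKM, and together they made up nearly all of the beta chain level, with shares of 54.1 ± 1.44% and 41.01 ± 1.74%. ITGB8 followed at 3.87 ± 0.146 FPKM, whereas ITGB4 stood at 0.193 ± 0.0819 FPKM.

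In the LoVo libraries labelled shRNA control the order was another. ITGA6 held 68.3 ± 0.94% of the alpha chain level and ITGB4, its hemidesmosome partner, 74.1 ± 1.52% of the beta chain level. The ITGA6 level, 62.9 ± 2.13 FPKM, differed from that of MDST8 WT by less than its own SD, and ITGB4 stood at 114 ± 2.703 FPKM. ITGAV at 7.63 ± 0.221, ITGA2 at 6.66 ± 0.169 and ITGA3 at 5.63 ± 0.364 FPKM came next among the alpha chains, and ITGB1 at 20.2 ± 1.31 and ITGB5 at 16.7 ± 1.03 FPKM among the beta chains. The summed alpha chain level was 92 ± 1.88 FPKM, against 300 ± 8.24 FPKM in MDST8 WT. The plot of mean levels by group shows these orders side by side.

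**Figure D1:**
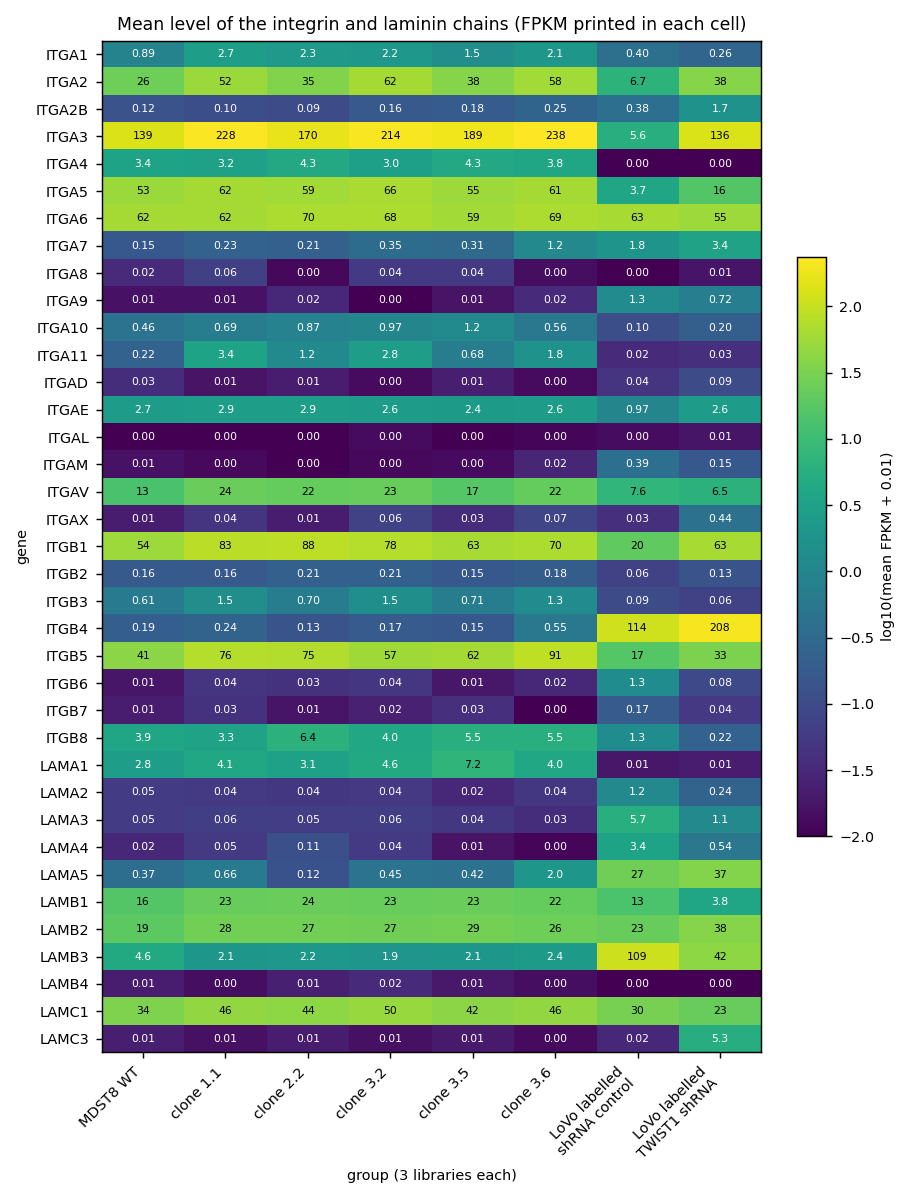
Mean level of each of the 37 chains (rows) in the 8 groups of 3 libraries (columns), as FPKM printed in each cell and as log10(mean FPKM + 0.01) in colour. LAMA1 was higher in each MDST8 group than in either LoVo group, and ITGB4, LAMA3, LAMA5 and LAMB3 were lower, with ITGA3 at 5.63 FPKM in the labelled controls and at 136 FPKM in the libraries labelled TWIST1 shRNA.

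Among the ligands, MDST8 WT carried LAMC1 at 33.7 ± 0.94 FPKM, LAMB2 at 18.9 ± 1.02 FPKM and LAMB1 at 15.9 ± 0.539 FPKM, and far less of any alpha chain. The order of LAMB2 and LAMB1 rests on merged exon lengths of 6865 bp and 18592 bp and cannot be read as an order of transcripts. LAMA1 led these at 2.84 ± 0.0947 FPKM, 85.4 ± 0.852% of the summed laminin alpha level, and LAMA5 came next at 0.369 ± 0.0419 FPKM. The labelled LoVo controls carried LAMB3 at 109 ± 2.12 FPKM, 75 ± 0.72% of the summed beta chain level, and LAMA5 at 27.2 ± 2.01 FPKM, 72.5 ± 1.22% of the alpha chain level, followed by LAMA3 at 5.69 ± 0.111 FPKM and LAMA4 at 3.43 ± 0.0986 FPKM. LAMC1 stood at 29.9 ± 0.576 FPKM there, close to its level in MDST8.

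Between MDST8 WT and the labelled LoVo controls, 15 of the 32 chains tested were higher in MDST8 and 11 lower, beside 33.4% higher and 33.1% lower over all 15844 genes tested. A gene was tested here if it passed the filter in either line. A chain that passed in 1 line alone entered through that line, so the filter largely set its direction. The chains that passed in MDST8 alone were all called higher, and those that passed in LoVo alone were lower or not called. Throughout, a gene was called where edgeR's quasi-likelihood test gave an adjusted p-value (Benjamini-Hochberg, over all genes tested) below 0.05 and the log2 fold change exceeded 0.58 in size. The LoVo libraries are labelled shRNA control by treatment and wild type by genotype, and any effect of such a treatment cannot be told apart from the line, as in bulk RNA fewer cells of a type and less RNA per cell cannot be told apart either. ITGA4, a receptor chain for fibronectin and VCAM1, gave 668, 751 and 708 counts in the MDST8 WT libraries and 0 in all 6 LoVo libraries, and was at least 214-fold higher in MDST8 against a floor of 3 counts per library. ITGA4 shares 26.4% of its exon bases with the antisense gene CERKL, and counting did not use the strand. LAMA1 stood at 44.7, 43.7 and 46.6 CPM in MDST8 WT and at 2, 5 and 1 counts in the labelled controls, with a log2 difference of 8.17 ± 0.18 (± SE, adjusted p = 1.04e-30). ITGA3 was higher in MDST8 by 4.62 ± 0.065 on the log2 scale and ITGA5 by 3.82 ± 0.05. In the other direction, ITGB4 was lower in MDST8, with a log2 difference of -9.203 ± 0.13 (adjusted p = 3.03e-36) and 1.799, 0.707 and 1.41 CPM in the WT libraries and 764, 754 and 789.8 CPM in the labelled controls. LAMA4, LAMA3, LAMA5, LAMA2 and LAMB3 were lower too, with log2 differences of -7.29, -6.83, -6.199, -4.63 and -4.58. ITGB6 gave 3 counts in all over the WT libraries against 130, 162 and 116 in the labelled controls, and ITGA9, a receptor chain for tenascin, gave 1 count in each WT library against 172 to 214. ITGA6 at -0.029, LAMB1 at 0.24, LAMB2 at -0.27 and LAMC1 at 0.17 stayed within the fold threshold.

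In the knockout clones the receptors rose far more often than they fell. Against WT, 11 chains were called higher and 1 lower in clone 1.1, 7 and 2 in clone 2.2, 9 and 1 in clone 3.2, 7 and 2 in clone 3.5, and 10 and 1 in clone 3.6, out of 24 tested in each. Over all 13706 genes tested the shares called higher were 12%, 8.05%, 10.9%, 11.2% and 15.3% in that order of clones, and the shares called lower 7.49%, 6.64%, 6.09%, 7.25% and 11.7%. No integrin was called lower in any clone. The median log2 fold change over the 24 chains was 0.55, 0.36, 0.51, 0.33 and 0.49, where the median over all genes lay between -0.014 and 0.0028. The 5 comparisons share the same 3 WT libraries. The mitochondrial share of counts was 2.398 to 3.05% in WT, 3.24 to 3.68% in clone 1.1, 3.21 to 3.35% in clone 2.2, 2.801 to 4.02% in clone 3.2, 3.89 to 4.37% in clone 3.5 and 2.38 to 3.28% in clone 3.6, so that clones 1.1, 2.2 and 3.5 lay above WT without overlap, and its part in the results was not tested. In all 5 clones alike, 2 chains rose and 1 fell, beside 3.17% and 1.06% of all genes. These were the collagen receptor chains ITGA1 and ITGA11 and the laminin chain LAMB3.

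All 4 collagen-binding alpha chains were called higher in clones 1.1 and 3.2, and 3 of the 4 in each of the other clones. ITGA11, the collagen receptor chain best known from fibroblasts, showed the largest change of any chain in clones 1.1, 2.2, 3.2 and 3.5. Its levels were 2.805, 2.27 and 2.22 CPM in the WT libraries, 34.8, 41.6 and 36.1 CPM in clone 1.1, 12.9, 12.9 and 13 CPM in clone 2.2 and 31.3, 28.4 and 32.3 CPM in clone 3.2. Clone 3.5 gave 7.38, 7.77 and 7.16 CPM and clone 3.6 17.5, 20.2 and 19.6 CPM. Every clone library lay above every WT library, and the clones did not overlap each other, 1.1 being the highest and 3.5 the lowest. The log2 fold changes were 3.94 ± 0.11, 2.402 ± 0.13, 3.65 ± 0.11, 1.61 ± 0.14 and 2.97 ± 0.12, with adjusted p-values of at most 4.69e-12. In LoVo ITGA11 was read at 3 to 7 counts per library.

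ITGA1, a receptor chain for collagen IV and other collagens, stood at 17.5, 17.3 and 14.8 CPM in WT. The clones gave 48.3, 51.4 and 49.5 CPM (1.1), 42.02, 41.5 and 43.9 CPM (2.2), 42.2, 39.5 and 39.2 CPM (3.2), 28.8, 28.6 and 24.4 CPM (3.5) and 39.6, 35.5 and 41.6 CPM (3.6). All clone libraries lay above all WT libraries, with clone 3.5 the lowest of the 5, and the log2 fold changes ran from 0.71 ± 0.077 in clone 3.5 to 1.59 ± 0.071 in clone 1.1. ITGA1 shares 13.2% of its exon bases with other genes, PELO among them. ITGA2, the chain of the main collagen receptor of epithelia and platelets, was the most abundant of the 4. It stood at 202, 208 and 198 CPM in WT and at 399, 421 and 417 CPM in clone 1.1, 285, 278 and 269 CPM in clone 2.2, 497, 468 and 502 CPM in clone 3.2, 300.3, 296 and 304 CPM in clone 3.5 and 439.8, 458 and 485 CPM in clone 3.6. No clone library overlapped WT. The log2 fold changes of 1.02 ± 0.038, 1.27 ± 0.038 and 1.19 ± 0.038 were called, and those of clones 2.2 (0.44 ± 0.038, adjusted p = 5.41e-12) and 3.5 (0.56 ± 0.038, adjusted p = 9.48e-15) stayed under the fold threshold, the latter passing it at 0.59 without WT replicate B. Clone 3.5 also passed it, at 0.583, under upper-quartile factors. ITGA10, a collagen receptor chain of cartilage, was called higher in clones 1.1, 2.2, 3.2 and 3.5, with log2 fold changes of 0.59, 0.93, 1.09 and 1.42 on 45 to 64 counts per WT library. Its call in clone 1.1 was lost without replicate B or C of that clone or WT replicate B, at 0.56, 0.56 and 0.46.

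The promoter of ITGA11 is shown because this chain changed most in 4 of the 5 clones. It is taken from RefSeq on GRCh38.p14 and runs from 250 bases before to 50 after the transcription start, chr15:68432114-68432413 on the minus strand, printed 5′ to 3′ with every E-box, CANNTG, in capitals.
ITGA11 promoter: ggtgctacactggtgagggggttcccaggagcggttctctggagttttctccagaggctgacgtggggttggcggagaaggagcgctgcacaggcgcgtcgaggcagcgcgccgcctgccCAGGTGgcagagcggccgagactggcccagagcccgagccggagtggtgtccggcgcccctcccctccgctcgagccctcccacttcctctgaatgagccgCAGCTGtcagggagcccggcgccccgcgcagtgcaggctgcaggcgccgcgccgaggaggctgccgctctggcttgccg
It held 2 E-boxes, neither of them CATCTG, and no listed TWIST1 peak overlapped these 300 bases in either line.

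**Figure D2:**
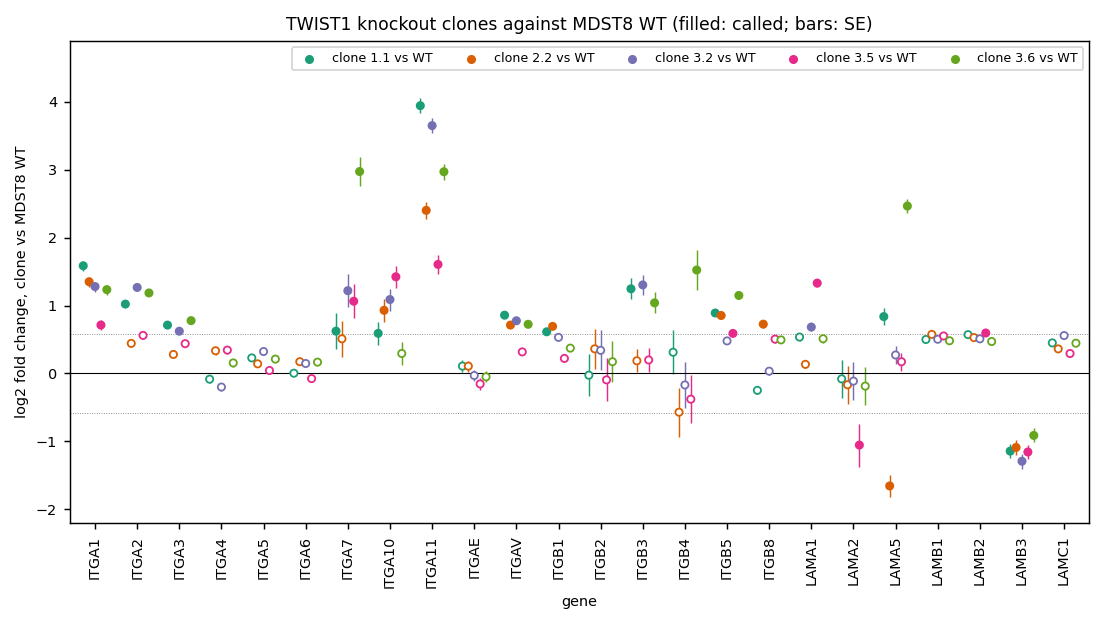
Log2 fold change of each of the 24 chains tested in MDST8 (x axis) for the 5 knockout clones against WT (y axis), with SE as bars. Filled points were called, and dotted lines mark 0.58 on either side of 0. ITGA1 and ITGA11 lie above the upper line and LAMB3 below the lower line in all 5 clones, while LAMA5 lies below it in clone 2.2 and at 2.47 in clone 3.6.

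Of the 3 laminin-binding alpha chains, ITGA3 and ITGA7 rose in several clones and ITGA6 in none. ITGA3, already the most abundant alpha chain, went from 1370.5, 1418 and 1291 CPM in WT to 2262, 2269 and 2173 CPM in clone 1.1, 2147, 2011 and 2142 CPM in clone 3.2 and 2317, 2332 and 2348 CPM in clone 3.6. These 3 were called, with log2 fold changes of 0.71 ± 0.035, 0.62 ± 0.035 and 0.78 ± 0.035. Clone 2.2 gave 1687, 1627 and 1674 CPM and clone 3.5 1828, 1856 and 1871 CPM, also above every WT library, at log2 fold changes of 0.28 ± 0.035 and 0.44 ± 0.035. ITGA6 stood at 416, 413 and 406 CPM in WT and between 381 and 473 CPM in the clone libraries, with log2 fold changes of -0.075 to 0.17. ITGA7, the laminin receptor chain of muscle, was read at 40, 16 and 22 counts in WT and at 230, 198 and 246 counts in clone 3.6, where its level rose from 1.34 ± 0.685 to 10.5 ± 0.806 CPM, a log2 fold change of 2.97 ± 0.21 (adjusted p = 1.66e-14). No other chain changed more in that clone. In CPM the libraries were 2.12, 0.808 and 1.11 in WT, 2.27, 2.47 and 1.42 in clone 1.1, 1.54, 2.09 and 2.11 in clone 2.2, 3.51, 3.13 and 2.77 in clone 3.2, 2.81, 2.91 and 2.72 in clone 3.5 and 10.4, 9.801 and 11.4 in clone 3.6. WT overlapped clones 1.1 and 2.2 but none of the others. The calls in clones 3.2 (1.22) and 3.5 (1.06) held without any 1 library. The call in clone 1.1 (0.62, adjusted p = 0.038) did not, the value falling to between 0.37 and 0.55 without replicate A or B of the clone or WT replicate B or C. It was also lost in an edgeR fit of WT and clone 1.1 alone, at 0.63 with an adjusted p of 0.072. Clone 2.2 (0.51) was called, at 0.995, without WT replicate A.

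Among the RGD-binding chains, ITGAV, a receptor chain for vitronectin, rose in clones 1.1, 2.2, 3.2 and 3.6, with log2 fold changes of 0.86, 0.71, 0.78 and 0.72 and 0.32 in clone 3.5. ITGA5, the fibronectin receptor chain, was called in no clone, its log2 fold changes running from 0.044 to 0.32, and ITGA4 and ITGAE, the chain of the receptor for E-cadherin, were called in none either, at -0.20 to 0.34 and -0.15 to 0.11.

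Beta chains rose with their partners in part. ITGB1 was higher than WT in every clone library. Its levels were 797, 791 and 777 CPM in WT, 1167, 1233 and 1229 CPM in clone 1.1, 1277, 1299.6 and 1272 CPM in clone 2.2, 1165, 1143 and 1120.2 CPM in clone 3.2, 929, 933 and 906 CPM in clone 3.5 and 1039, 1007 and 1016 CPM in clone 3.6. The log2 fold changes of clones 1.1 and 2.2, 0.61 ± 0.031 and 0.69 ± 0.031, were called, and those of 3.2, 3.5 and 3.6, 0.53, 0.22 and 0.37, stayed under the fold threshold at adjusted p-values of at most 2.09e-07. The pseudogene ITGB1P1 was counted beside ITGB1, and reads of near-identical sequence could be split between them. ITGB5 rose in 4 clones. It stood at 273, 285 and 244 CPM in WT and at 490.1, 501 and 501 CPM in clone 1.1, 478, 482 and 501 CPM in clone 2.2, 375, 359 and 389 CPM in clone 3.2, 392, 422 and 399.8 CPM in clone 3.5 and 599, 602 and 579.9 CPM in clone 3.6, without overlap with WT. Its log2 fold change was largest in clone 3.6 at 1.15 ± 0.041 and stayed under the fold threshold in clone 3.2 at 0.48 ± 0.041. In clone 3.5 (0.59) the call was lost without replicate B of the clone or WT replicate C, at 0.56 and 0.54. With all libraries kept it was also lost, at 0.57 with no filter and at 0.53 under limma on log2 counts. Per length, ITGB5 made up 54.01 ± 0.626% of the beta chain level in clone 3.6 and ITGB1 41.6 ± 0.523%, the reverse of their order in WT. That reversal rests on merged exon lengths of 6515 bp for ITGB5 and 14561 bp for ITGB1. In CPM, ITGB1 stayed above ITGB5 in every library of clone 3.6.

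ITGB3, the beta chain of the vitronectin receptor, was called higher in clones 1.1, 3.2 and 3.6, by 1.25, 1.304 and 1.04 on the log2 scale, and gave 0.19 and 0.20 in clones 2.2 and 3.5. It shares 33.2% of its exon bases with another annotated gene. ITGB8 was called higher in clone 2.2 alone, at 0.73 ± 0.051, and gave -0.25 in clone 1.1. ITGB4 was read at 14 to 34 counts in WT and was called higher in clone 3.6 alone, where it reached 71 to 86 counts. Its levels were 1.799, 0.707 and 1.41 CPM in WT and 3.76, 3.51 and 3.98 CPM in clone 3.6, a log2 fold change of 1.52 ± 0.29 (adjusted p = 1.85e-05). The other 4 clones gave 0.317 to 2.32 CPM and overlapped WT, and clone 2.2, at -0.57, was called lower without replicate B of the clone or WT replicate B, at -1.001 and -0.86. ITGB2, the leukocyte beta chain, was read at 38 counts or fewer in every MDST8 library and was called in no clone.

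**Figure D3:**
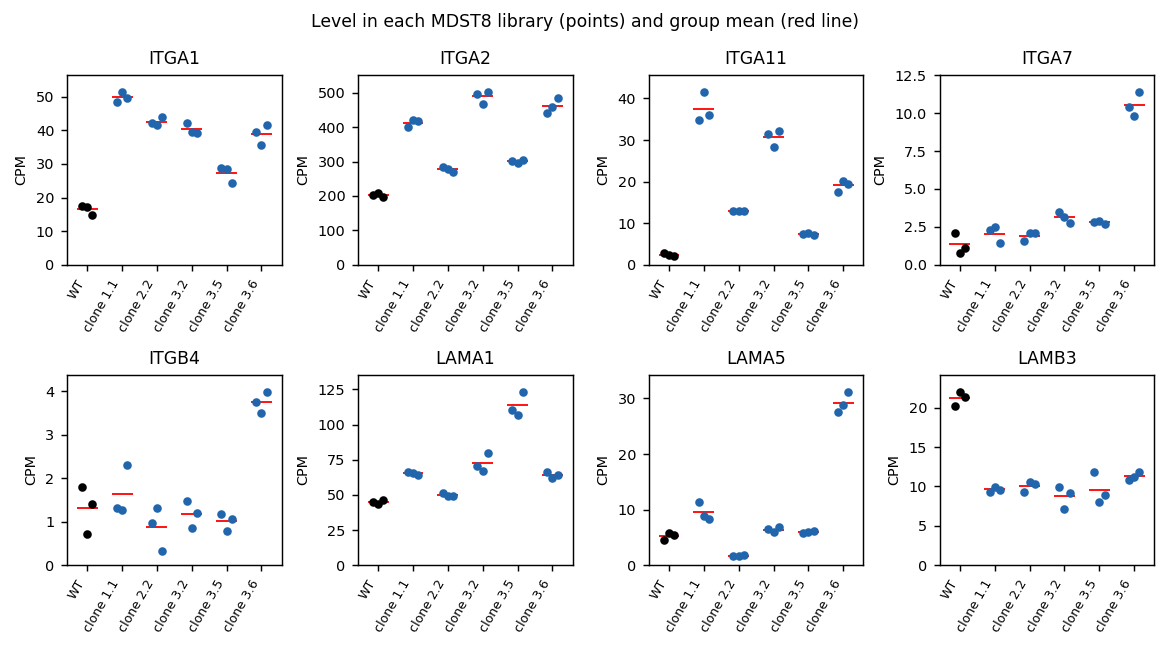
Level of 8 chains in each of the 18 MDST8 libraries, in CPM on axes that start at 0, with the group mean as a red line. The 3 WT libraries (black) of ITGA1, ITGA2 and ITGA11 lie below all clone libraries (blue), those of LAMB3 above all of them, and ITGA7, ITGB4 and LAMA5 are highest in clone 3.6.

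The laminin chains of the clones went different ways. LAMB3, a chain of the anchoring laminin of epithelia, fell in all 5 clones. It stood at 20.3, 21.98 and 21.4 CPM in WT, 9.35, 9.94 and 9.58 CPM in clone 1.1, 9.32, 10.5 and 10.3 CPM in clone 2.2, 9.92, 7.17 and 9.13 CPM in clone 3.2, 11.8, 8.03 and 8.97 CPM in clone 3.5 and 10.8, 11.1 and 11.9 CPM in clone 3.6. The highest clone library, at 11.9 CPM, lay below the lowest WT library, and clone 3.6 was the highest clone though it overlapped clone 3.5. The log2 fold changes were -1.14 ± 0.11, -1.09 ± 0.11, -1.29 ± 0.11, -1.16 ± 0.11 and -0.91 ± 0.10, with adjusted p-values of at most 1.35e-09. The other common beta chains moved the opposite way and by less. LAMB1 gave log2 fold changes of 0.48 to 0.58 and was called in no clone, and LAMB2 gave 0.47 to 0.60 and was called in clone 3.5 alone, a call lost at 0.57 without WT replicate A. Both had adjusted p-values of at most 4.65e-11 in every clone, so that the fold threshold decided their calls. LAMB1 passed it, at 0.58 to 0.62, in clone 2.2 without replicate C of the clone or WT replicate B or C, and at 0.59 in clone 3.5 without WT replicate C. With all libraries kept, LAMB1 also passed in clone 2.2 at 0.581 to 0.597. The settings were DESeq2, RLE or upper-quartile factors, limma on log2 counts and a fit of the 2 groups alone. Under limma on log2 counts it passed in clone 3.6 as well, at 0.605. LAMB2 passed it, at 0.58 to 0.62, in clone 1.1 without replicate B or C of the clone or WT replicate B, and at 0.58 in clone 2.2 without WT replicate B. With all libraries kept, LAMB2 also passed in clone 1.1, at 0.58 to 0.596, under DESeq2, RLE or upper-quartile factors and limma on log2 counts. That limma fit also gave calls in clones 3.2 and 3.6, at 0.582 and 0.595, and lost that of clone 3.5, at 0.534. LAMB2 levels were 123, 137 and 129 CPM in WT and 167 to 201 CPM in the 15 clone libraries, without overlap. LAMC1, the gamma chain of most laminins, stood at 276, 290.1 and 289 CPM in WT and at 340 to 446 CPM in the clone libraries, again without overlap. Its log2 fold changes were 0.29 to 0.56, and that of clone 3.2 passed the threshold, at 0.58 to 0.62, without replicate B of the clone or WT replicate B or C. With all libraries kept it also passed there under upper-quartile factors and limma on log2 counts, at 0.583 and 0.628.

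The promoter of LAMB3 is shown because this chain fell in every clone and in the LoVo libraries labelled TWIST1 shRNA. It is the RefSeq promoter on GRCh38.p14 at the start that GENCODE also gives as the 5′ end of the gene, chr1:209652376-209652675 on the minus strand, with E-boxes in capitals.
LAMB3 promoter: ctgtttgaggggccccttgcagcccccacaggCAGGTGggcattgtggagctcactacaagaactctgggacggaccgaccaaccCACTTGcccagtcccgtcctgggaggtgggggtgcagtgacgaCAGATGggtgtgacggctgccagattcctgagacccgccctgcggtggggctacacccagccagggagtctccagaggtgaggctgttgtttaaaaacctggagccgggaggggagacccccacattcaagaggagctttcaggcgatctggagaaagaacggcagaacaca
It held 3 E-boxes, of which 1 was CAGATG, which reads CATCTG on the other strand. A listed MDST8 peak with a p of 0.0018 and a q of 0.82 overlapped these bases, with its summit at -445 bases from the 5′ end, and no LoVo peak did.

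Of the laminin alpha chains, LAMA1 and LAMA5 varied among the clones. LAMA1 stood at 44.7, 43.7 and 46.6 CPM in WT and rose in clone 3.2 (70.6, 66.95 and 79.8 CPM) and clone 3.5 (111, 107 and 123 CPM), by 0.68 ± 0.058 and 1.33 ± 0.056 on the log2 scale. Clones 1.1 (66.4, 65.7 and 64.1 CPM), 2.2 (51.2, 48.9 and 49.05 CPM) and 3.6 (66.04, 61.8 and 64.4 CPM) gave 0.54, 0.13 and 0.51. LAMA5 was the one chain called in both directions. It stood at 4.604, 5.76 and 5.45 CPM in WT, at 1.596, 1.66 and 1.797 CPM in clone 2.2 and at 27.6, 28.9 and 31.1 CPM in clone 3.6, with clone 1.1 at 11.3, 8.87 and 8.26 CPM, clone 3.2 at 6.52, 5.91 and 6.79 CPM and clone 3.5 at 5.74, 5.97 and 6.198 CPM. Its log2 fold change was -1.66 ± 0.17 in clone 2.2 (adjusted p = 2.38e-10), 0.84 ± 0.12 in clone 1.1 (adjusted p = 3.04e-07) and 2.47 ± 0.11 in clone 3.6 (adjusted p = 1.92e-20). Clone 3.6 thus lay above and clone 2.2 below every other MDST8 library, 4.12 apart on the log2 scale. LAMA2 was read at 31 counts or fewer in every MDST8 library and was called lower in clone 3.5, at -1.05 ± 0.32.

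Among the 5 clones, without WT, 21 of the 24 chains differed at an adjusted p-value below 0.05, beside 81.0% of all genes. With the added condition, set after the data were seen, that the highest and lowest clone lie over 0.58 apart, 12 of 24 chains remained, beside 32.0% of all genes. The widest ranges were those of LAMA5 (4.12 on the log2 scale), ITGA7 (2.46), ITGA11 (2.34) and ITGB4 (2.09), and in ITGA7, ITGB4 and LAMA5 clone 3.6 was the highest. LAMB1 with a range of 0.094, LAMB2 with 0.13 and ITGB2 with 0.46 did not pass the F test. Fibroblast markers moved among the clones as well, their summed level running from 314 to 341 CPM in clone 3.6 and from 1152 to 1313 CPM in clone 1.1, mostly COL1A1. Their part in the integrin levels was not tested.

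In LoVo, 12 of the 26 chains tested were called higher under the TWIST1 shRNA label than under the control label and 9 were called lower, beside 26.6% higher and 26.1% lower over all 14270 genes tested. The median log2 fold change over the 26 chains was 0.16, where that of all genes was 0.0097. Of 17 integrins 10 were called higher and 4 lower, and of 9 laminins 2 higher and 5 lower, so both classes moved in both directions. The largest rise was that of a laminin chain, LAMC3, and the largest fall that of an integrin chain, ITGB6. TWIST1 counts run against these labels, so the direction of each of these differences rests on labels that the targeted gene contradicts. The mitochondrial share of counts was 3.49 to 3.96% in the labelled controls and 5.47 to 10.9% under the TWIST1 shRNA label, highest there in replicate 1, which stood apart from the other 2. The colon epithelium markers fell as well, 7 of 8 being called, from a summed level of 8084 to 8399 CPM to 3834 to 4249 CPM, CDX2 from 263 to 31.4 CPM. The mesenchymal markers fell from 120 to 125 CPM to 17.3 to 19.3 CPM in sum, and the fibroblast markers, mostly COL1A1, went from 4.28 to 6.07 CPM to 53.6 to 79.7 CPM. The part of these in the results was not tested.

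ITGA3 showed the largest integrin change in size. It stood at 54.1, 52.3 and 59.2 CPM in the labelled controls and at 1175, 1342 and 1488 CPM in the libraries labelled TWIST1 shRNA, without overlap, a log2 fold change of 4.62 ± 0.091 (adjusted p = 1.16e-16). Per length this was 136 ± 15.97 FPKM, beside 139 ± 6.54 FPKM in MDST8 WT. ITGA2 went from 52.05, 54.1 and 51.5 to 289, 298 and 303 CPM, a log2 fold change of 2.53 ± 0.059. ITGA5 rose by 2.13 ± 0.072 and ITGB1, the partner of all these chains, by 1.68 ± 0.061, from 281, 316 and 284 to 895, 936 and 925 CPM. Other beta chains were higher too. ITGB5 went from 105, 116 and 104 to 189.5, 218 and 239 CPM, a log2 fold change of 1.02 ± 0.076. ITGB4 went from 764, 754 and 789.8 to 1243, 1377 and 1594 CPM, a log2 fold change of 0.90 ± 0.078. ITGA7 went from 17.1, 14.9 and 17.9 to 33.3, 28.9 and 29.8 CPM, a log2 fold change of 0.92 ± 0.10. None of these groups overlapped. The laminin receptor chain ITGA6 stood at 427, 429.6 and 404 CPM in the labelled controls and at 363, 377 and 366 CPM under the TWIST1 shRNA label, lower in all 3 but within the fold threshold at a log2 fold change of -0.16 ± 0.055, and ITGAV gave -0.20 ± 0.057. The share of ITGA3 in the alpha chain level went from 6.13 ± 0.524% to 52.04 ± 2.56% and that of ITGA6 from 68.3 ± 0.94% to 21.2 ± 1.36%.

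Low integrins of other tissues changed too. ITGA2B, the alpha chain of the platelet fibrinogen receptor, rose by 2.14 ± 0.19 on the log2 scale and ITGAX by 3.895 ± 0.39, from 3 to 4 counts to 39 to 68 counts per library, while ITGAM fell, at -1.31, from 26 to 58 counts to 12 to 18 counts, a call lost at -0.80 without control replicate A. Leukocyte markers stayed at or below 1.6 CPM in sum, with CD3E at 0 in the labelled controls. ITGAE rose by 1.46 ± 0.12 and ITGA9 gave -0.79 ± 0.14. The activators of TGF-beta went down. ITGB6, an integrin chain of epithelia, gave 7.99, 8.25 and 6.64 CPM in the labelled controls and 0.729, 0.292 and 0.39 CPM in the libraries labelled TWIST1 shRNA, a log2 fold change of -3.95 ± 0.29 (adjusted p = 2.06e-09), the lowest of any chain, and ITGB8 fell as well, at -2.54. ITGB6 shares 16.7% of its exon bases with another annotated gene. ITGA1, at 7.44, 6.82 and 7.73 CPM in the labelled controls and 5.78, 4.61 and 4.23 CPM under the TWIST1 shRNA label, gave -0.55 ± 0.17 (adjusted p = 0.00836), under the fold threshold, which it passed at -0.67 without replicate 1 of the libraries labelled TWIST1 shRNA and at -0.605 without control replicate B. With all libraries kept, ITGA1 passed it at -0.609 with no filter.

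**Figure D4:**
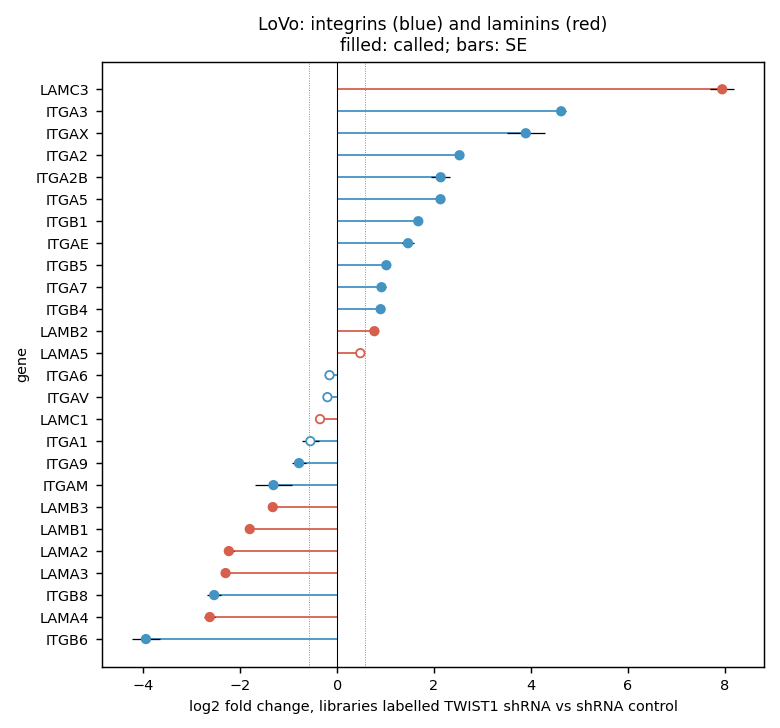
Log2 fold change with SE of the 26 chains tested in LoVo, libraries labelled TWIST1 shRNA against those labelled shRNA control, integrins in blue and laminins in red. Filled points were called, and dotted lines mark 0.58 on either side of 0. LAMC3 and ITGA3 lie at the top, at 7.95 and 4.62, and ITGB6 at the bottom, at -3.95.

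On the ligand side of LoVo, LAMC3, a gamma chain of restricted expression, had the largest change of all chains. It was read at 3, 7 and 0 counts in the labelled controls and at 791, 806 and 952 counts, or 41.2, 47.03 and 53 CPM, under the TWIST1 shRNA label, so that its fitted log2 fold change of 7.95 ± 0.25 rests on 10 control counts in all. In MDST8 it was read at 5 counts or fewer per library. The epithelial chain LAMB3 fell from 496, 511 and 514 to 173, 198 and 221 CPM, a log2 fold change of -1.33 ± 0.074 (adjusted p = 5.09e-11). LAMA3, its partner, LAMA4, LAMA2 and LAMB1 fell too, with log2 fold changes of -2.304, -2.63, -2.24 and -1.805, all without overlap between the groups. LAMB2 rose from 163, 149 and 159 to 255, 249 and 282 CPM, by 0.77 ± 0.063. LAMA5, at 405, 355 and 405 CPM in the labelled controls and 577, 465 and 547 CPM under the TWIST1 shRNA label, gave 0.48 ± 0.079. LAMC1, at 254, 257 and 247 and then 184, 193 and 204 CPM, gave -0.35 ± 0.057. Neither passed the fold threshold, though in neither did the groups overlap. The summed laminin alpha level differed by less than its SD between the groups, at 37.5 ± 2.18 and 38.99 ± 4.04 FPKM, with the share of LAMA5 going from 72.5 ± 1.22% to 95.03 ± 0.601%.

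The difference of the LoVo effect, labelled TWIST1 shRNA minus control, from the MDST8 effect, the mean of the 5 clones minus WT, was tested for the 18 chains that passed the filter in both lines. It was past an adjusted p-value of 0.05 for 16 of them, beside 79.0% of all 12132 genes tested. These differences follow the LoVo labels, which TWIST1 counts contradict, and each was also computed with the LoVo labels exchanged, an alternative added after the data were seen, which again gave 16 chains. ITGA3, called higher in LoVo and in 3 clones, gave 4.02 ± 0.074 as labelled and -5.19 with the labels exchanged, and ITGB8 gave -2.89 ± 0.12 and 2.24. ITGA1 and ITGAV, which rose in 5 and 4 clones and were not called in LoVo, gave -1.82 and -0.92, and -0.68 and -0.48 with the labels exchanged. LAMB1 gave -2.37, with an adjusted p-value of 9.68e-25, and 1.28 with the labels exchanged. LAMB3 fell in both lines as labelled, with a difference of -0.25 ± 0.10 (adjusted p = 0.022), which was 2.45 with the LoVo labels exchanged. The call as labelled was lost at -0.16 to -0.24 without any 1 of the libraries TWIST1 shRNA replicate 1, clone 3.2 replicate A, WT replicate A or WT replicate C. With all libraries kept it was also lost, at -0.15 under upper-quartile factors and at -0.26 under limma on log2 counts. ITGA7 (-0.41 ± 0.24, adjusted p = 0.113) and LAMA5 (0.018 ± 0.14, adjusted p = 0.907) did not pass, which does not show that they responded alike, and ITGA7 passed at -0.86 without WT replicate A. With the labels exchanged both passed, at -2.19 and -0.896. The MDST8 mean of LAMA5 joined 2 clones called higher, at up to 2.47, with 1 called lower, at -1.66. The SE of its difference leaves out this spread between clones.

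Genes that work with these receptors and ligands were counted as whole lists, whose calls stand beside 8.05 to 15.3% higher and 6.09 to 11.7% lower over all genes in a clone, and 26.6% higher and 26.1% lower in LoVo. Of 25 adaptors and kinases that link integrins to actin, 24 were tested in each line, and 1 to 2 were called higher and 0 to 2 lower in each clone, with medians of 0.053 to 0.21. VCL, the vinculin gene, rose in clones 1.1 and 2.2 by 0.80 and 0.85 and gave 0.47 to 0.56 in the others. FERMT2, a kindlin that activates integrins, fell in clones 3.2 and 3.5, at -0.65 and -0.63, and gave -0.42 to -0.36 in the others. In LoVo 3 were called higher and 7 lower. Of 17 basement membrane partners and other laminin receptors, 13 were tested in MDST8, with 2 to 5 called higher and 0 to 3 lower. COL18A1, a collagen of basement membranes, rose in clones 1.1, 2.2, 3.2 and 3.6 by 1.09, 1.099, 0.75 and 1.36, gave 0.46 in clone 3.5, and rose by 4.38 in LoVo. COL4A1, the main network collagen, rose in clones 1.1, 2.2, 3.2 and 3.5 by 1.3, 1.096, 0.67 and 0.66 and gave -0.09 in clone 3.6. In LoVo 8 of 14 were called higher and 4 lower. Of the 4 other hemidesmosome genes, 2 were called higher in clone 1.1, 1 in clone 3.5 and none in clones 2.2, 3.2 and 3.6, and in LoVo 2 were called higher and 1 lower, where PLEC, the plectin gene, rose by 1.87 while COL17A1 fell, at -2.97. Of 15 other integrin ligands, 10 were tested in MDST8, with 2 called higher and 5 lower in clone 1.1, 5 and 2 in clone 2.2, 3 and 5 in clone 3.2, 5 and 5 in clone 3.5, and 4 and 5 in clone 3.6. EDIL3 and the tenascin gene TNC rose in all 5 clones, by 2.19 to 3.44 and by 0.75 to 1.54, and the fibulin gene FBLN5 and SPP1, which encodes osteopontin, fell in all 5, with log2 fold changes of -5.52 to -3.34 and -1.74 to -0.79. FN1, the fibronectin gene, was called higher in clones 2.2, 3.2 and 3.5. In LoVo 1 of 10 ligands was called higher and 4 lower. The median log2 fold change over the clones was 0.19 to 0.34 for the basement membrane list, 0.074 to 0.54 for the hemidesmosome list and -0.86 to 0.49 for the ligands, and in LoVo the medians of the 4 lists in the order given were -0.22, 0.62, 0.56 and -0.55.

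TWIST1 ChIP-seq asked where TWIST1 sat in the genome of unperturbed cells. Within 3000 bp of the 5′ end, 28 of the 37 genes had a listed peak in MDST8 and 16 in LoVo, 11 of them in both. Over all 62703 genes the shares with such a peak were 63.1% and 55.7%, and over the genes tested in each line 76.5% and 58.2%, so that a peak near a start was common in these lists. The share of all genes with a peak in both lists was not computed, so the 11 cannot be read as shared binding. Each list came from 1 library, with peaks kept at a p-value below 0.05, and no replicate check is possible. The LoVo ChIP-seq cells are labelled wild type, and TWIST1 was at 0 counts in all 3 LoVo RNA libraries labelled shRNA control. The part of this in the LoVo peaks was not tested. The 54 peaks in MDST8 had a median p of 0.00714 and a median fold enrichment of 2.29, and the 23 in LoVo a median p of 0.012 and a median of 2.11. With peaks of p at most 0.001, 8 of the 37 chains had one in MDST8 (21.6%) and 4 in LoVo (10.8%). The shares were 17.9% and 16% over all genes, and 28.3% and 18.8% over the genes tested. With q at most 0.05, 1 and 0 chains had one, beside 0.437% and 0.362% of all genes. That 1 was ITGB7, with a p of 1.59e-06, a q of 0.0436 and the summit at -584 bases from the 5′ end, a leukocyte chain read at 5 counts or fewer in every MDST8 library. Peaks of both lists overlapped each other at ITGA1, ITGAV, ITGB4, LAMB2 and LAMC3, with 3 such places at LAMB2. How often peaks of the lists overlap near other genes was not computed. Of the 3 chains that changed alike in all clones, ITGA1 had 1 MDST8 peak with a p of 0.0326, ITGA11 had 2 with a lowest p of 0.00141 and LAMB3 had 3 with a lowest p of 0.0018.

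The sequences at the strongest MDST8 summits of ITGA1, ITGA11 and LAMB3 are shown because these chains changed alike in all 5 clones. Each runs 50 bases to either side of the summit in hg38, on the strand of the gene, with E-boxes in capitals. They lie at chr5:52787889-52787989 (ITGA1, plus strand), chr15:68433748-68433848 (ITGA11, minus strand) and chr1:209652820-209652920 (LAMB3, minus strand).
ITGA1, MDST8 summit: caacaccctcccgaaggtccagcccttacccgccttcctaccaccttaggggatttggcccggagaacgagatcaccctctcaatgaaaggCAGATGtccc
ITGA11, MDST8 summit: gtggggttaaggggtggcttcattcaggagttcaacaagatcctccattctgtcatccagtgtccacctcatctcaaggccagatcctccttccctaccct
LAMB3, MDST8 summit: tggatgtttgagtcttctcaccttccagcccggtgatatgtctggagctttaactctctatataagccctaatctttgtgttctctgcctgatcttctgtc
The ITGA1 window held 1 E-box, CAGATG, and the others held none. All 78 words of 24 bases in each of these 3 windows occurred once in the chromosomes of hg38, counting both strands. Over the windows of all 77 peaks, 13 held a word found at 100 or more places and 57 held only words found once. Among the 14 windows with p at most 0.001 the counts were 3 and 9, and the 3 belonged to ITGB7, the chain with the q at most 0.05, ITGB1 and, in LoVo, ITGA5. This count of words was added after the sequences were seen. Reads from repeated words cannot all be placed at 1 site, and their part in these peaks was not tested.

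**Figure D5:**
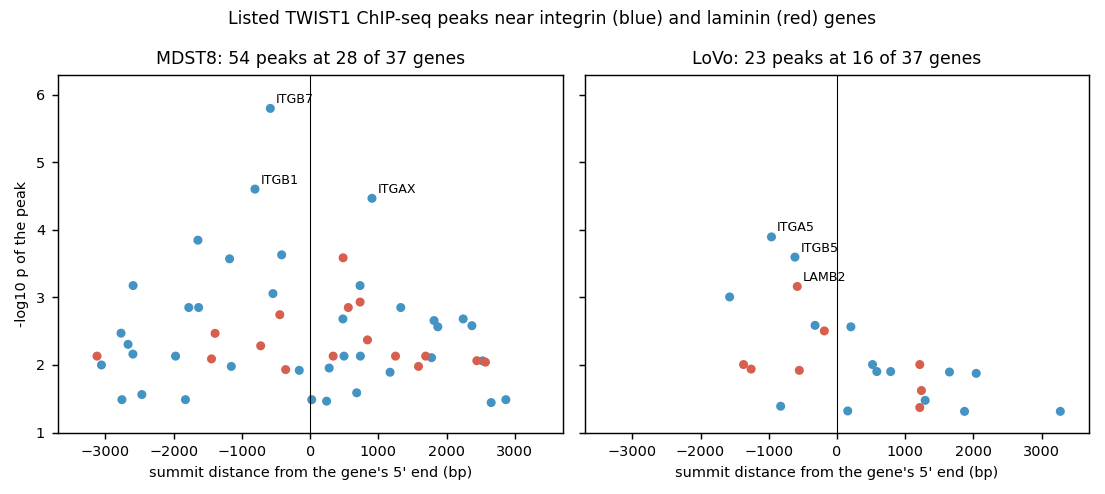
Distance of each peak summit from the 5′ end of its gene in bp (x axis, upstream to the left) against the -log10 p of the peak (y axis), for the 54 peaks in MDST8 and the 23 in LoVo, integrins in blue and laminins in red. The 3 peaks with the lowest p of each list are named, ITGB7 being the highest in MDST8 and ITGA5 in LoVo.

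E-box letters were counted in promoters as well. RefSeq gave 33 promoters of 300 bases for 26 of the 37 genes, and 20 of them, 60.6%, held CANNTG, which reads the same on both strands, beside 68.7% of all 35116 promoters in the table. CATCTG on either strand, which is 1 of the forms of CANNTG, was held by 4 (12.1%), beside 14.7% of all. A listed peak overlapped 6 of the 33 promoters in MDST8 and 0 in LoVo, beside 17.2% and 8.41% of all promoters.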

How the data were processed

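RNA-seq counts and TWIST1 ChIP-seq peaks of MDST8 and LoVo were used as deposited, and libraries were grouped by their labels. The authors trimmed reads with Trim Galore 0.6.6, aligned them to hg38 with HISAT2 2.1.0, sorted them with SAMtools 1.6 and deposited a count of fragments per gene made with featureCounts 2.0.0 on GENCODE 43, without normalization and without use of strand although the libraries marked it. Fragments on 2 overlapping genes were not counted. The deposited exon length in bp, another deposited value, was used for FPKM. For ChIP-seq, the authors aligned with Bowtie2 2.4.5 and called peaks with MACS2 2.2.7.1, and deposited for each peak a score, a fold enrichment ratio, the -log10 of a p-value and of a q-value, and the offset of the summit in bp. Peak positions are in hg38, the build of the submitters' processing notes. On the chromosomes that hold the members' peaks, all peaks lay inside the chromosome ends, and the other chromosomes were not checked. Use of the input library in peak calling is not given in the sources used here.

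Counts were normalized by TMM and tested with edgeR 4.0.16 (R 4.3.3), all 18 MDST8 libraries in 1 fit, the 6 LoVo libraries in another, and all 24 for the comparison of lines and of effects. CPM for levels used TMM over all 24 libraries. SEs are the log2 fold change divided by the root of F. The study's own test, limma on log2 counts, was run as an alternative, since counts need a count model. Symbols were found for 62639 of 62703 identifiers and every column of counts matched a sample. The tests recovered known changes in simulated data, and the peak functions were tested against direct counting. Depth was 16567606 to 22217009 counts per library, and floors of 3 counts cover counting error only. No 2 libraries agreed within sampling noise. Alternatives were RLE and upper-quartile factors, DESeq2 1.42.0, limma 3.58.1 with and without voom, no filter, filterByExpr, a replicate block, only the groups compared, each library left out, the LoVo labels exchanged for the difference of effects (added after the data were seen), and other peak thresholds and windows.

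Named in full were chains called alike in all clones or both ways, the extremes of each comparison, the highest chain of each class per length, and chains called in LoVo and at least 3 clones. Members, lists and rules were chosen with earlier results of these data known.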

Additional observations from a re-analysis of the deposited data

Results flagged for a closer look

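For 16 chains the LoVo effect differed from the mean effect of the 5 MDST8 clones by edgeR's quasi-likelihood test of the difference itself, at an adjusted p-value below 0.05, where 79.0% of all genes tested did so. The LoVo directions follow labels that TWIST1 counts contradict, so that the order and the signs of these differences rest on those labels, and the values with the LoVo labels exchanged stand in the account of processing choices. On the log2 scale, LoVo minus MDST8, the difference was 4.02 for ITGA3, 1.903 for ITGA5, 1.59 for ITGA2, 1.42 for ITGAE and 1.15 for ITGB1. It was 0.71 for ITGB4, 0.19 for LAMB2 and 0.18 for ITGB5. In the other direction it was -2.89 for ITGB8, -2.37 for LAMB1, -1.96 for LAMA2, -1.82 for ITGA1, -0.92 for ITGAV and -0.82 for LAMC1. It was -0.28 for ITGA6 and -0.25 for LAMB3. The calls of ITGB4, ITGB5, LAMB2 and LAMB3 were each lost without some single library, ITGB4 at 0.44 without WT replicate A and 0.67 without WT replicate C, ITGB5 at 0.11 to 0.16 without control replicate A or C, TWIST1 shRNA replicate 3 or WT replicate B, and LAMB2 at 0.15 without control replicate B. With all libraries kept, limma on log2 counts also lost these calls, at 0.68, 0.18, 0.19 and -0.26 in that order. ITGB4 was lost under limma voom too, at 0.67, ITGB5 under filterByExpr, at 0.16, and LAMB3 under upper-quartile factors, at -0.15.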

How the results depend on the processing

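Of 3160 log2 fold changes recomputed for single chains, 3074 kept their side of the threshold, 34 lost a call, 38 gained one and 14 that were called in either setting changed sign, all 14 being differences of effects with the LoVo labels exchanged. Those were -3.42 for ITGA2, -5.19 for ITGA3, -2.33 for ITGA5, 0.075 for ITGA6, -1.46 for ITGAE, -2.16 for ITGB1, -1.04 for ITGB4, -1.81 for ITGB5, 2.24 for ITGB8, 2.56 for LAMA2, -0.896 for LAMA5, 1.28 for LAMB1, -1.304 for LAMB2 and 2.45 for LAMB3, the sign of the LoVo effect being turned by construction. ITGA6 and LAMC1 (-0.067) were then not called and ITGA7 (-2.19) and LAMA5 were. Counts of called chains stayed within 1.5 times the reported count, except where named here. Leaving out 1 library at a time gave 11 to 12 called chains in clone 1.1, 9 to 12 in 2.2, 10 to 11 in 3.2, 8 to 10 in 3.5 and 11 in 3.6, 19 to 22 among clones, 20 to 22 in LoVo, 26 between the lines and 14 to 16 for the difference of effects. Where this left 2 libraries in a group, the spread was pooled over the fit. The condition that clones lie over 0.58 apart gave 12 chains among clones in place of 21. With peaks of p at most 0.001, 8 chains had a promoter peak in MDST8 and 4 in LoVo, and with q at most 0.05, 1 and 0.

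Library letters are shared by WT and the clones, but same-letter libraries did not deviate together (r from -0.106 to 0.12, over 0.1 in 1 of 15 pairs). These correlations showed no pairing in expression, and whether a letter stands for a shared harvest or preparation was not tested. With the letter as a replicate block, 12, 9, 10, 9 and 11 chains were called in clones 1.1, 2.2, 3.2, 3.5 and 3.6, and 20 among clones. No paired analysis was possible in LoVo because its groups share no replicate names. Depth limits what can be said of ITGA8, ITGAD, ITGAL and LAMB4, each read at under 15 counts per library.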
